A study of Homo sapiens with 16 samples.

Results

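The genes described here encode the heat shock proteins and their J-domain partners. They were taken as every symbol beginning with HSPA, HSPB, HSPD, HSPE, HSPH, HSP90, DNAJA, DNAJB or DNAJC, which gave 80 of the 21453 gene symbols measured. RNA was sequenced from 2 human cancer lines, ECC-1 from endometrium and T-47D from breast, both grown beforehand, for 5 days, without phenol red and in 10% charcoal-stripped serum to lower steroid hormones. For the last 8 h the cells received 0.02% DMSO (the vehicle control), 10 nM 17β-estradiol, 100 nM bisphenol A (BPA, a plastics monomer) or 100 nM genistein (a soy isoflavone). Polyadenylated RNA was made into 2 libraries per line and treatment, or 16 libraries in 8 groups. The labels do not say whether the 2 libraries came from separate cultures, so p-values measure only the spread between these libraries. Each line is 1 cell population, and what holds for it was not tested in other endometrial or breast cells. In cultures sequenced whole, a change in how many cells carry a transcript and a change per cell cannot be told apart.

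Chaperones bind unfolded protein and help it to fold, to cross membranes or to be degraded. The HSPA and HSPH proteins work through cycles of ATP binding and hydrolysis. The DNAJ proteins bring them unfolded clients and stimulate their ATPase through the J domain. The HSP90 proteins act later in folding, on kinases and on steroid receptors, and the unliganded estrogen receptor is among their clients. The small heat shock proteins (HSPB) hold unfolded protein without ATP, and the chaperonin HSPD1 with its lid HSPE1 folds proteins in the mitochondrial matrix. After heat or protein damage the transcription factor HSF1 induces many of these genes by binding heat shock elements, inverted repeats of a short motif.

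Levels are RPKM, reads per kilobase of transcript and per M reads, scaled between libraries, so levels of different genes can be compared per length. Estimated depth ran from 17.4 to 29.4 M reads per library. Differences are on the log2(scaled RPKM + 0.5) scale from 1 limma fit over 13827 genes, and "changed" is written of genes whose adjusted p lay under 0.05. For low genes the pseudocount of 0.5 shrinks the difference. An exact permutation test of 2 libraries against 2 cannot give a two-sided p below 0.333 and was not used. Of the luminal breast markers, 8 of 8 reached 1 scaled RPKM in T-47D and 4 of 8 in ECC-1. For Mullerian epithelium T-47D had 0 of 6 markers at that level, and ECC-1 had 6. The estradiol libraries stood apart: over the members the difference between the 2 libraries of a group had an SD of 0.36 in T-47D and 0.31 in ECC-1 with estradiol, against 0.16 to 0.25 in the other 6 groups.

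Of the 80 genes, 66 passed the filter on low values (at least 1 RPKM in at least 2 libraries) and 14 did not. All 6 HSP90 symbols, 13 of 16 HSPA and HSPH genes, 3 of 8 HSPB genes, both HSPD1 and HSPE1, 4 of 4 DNAJA, 9 of 13 DNAJB and 27 of 29 DNAJC genes were tested, with HSPBP1 and HSPBAP1, partners named after a heat shock protein. The 14 others were DNAJB13, DNAJB3, DNAJB7, DNAJB8, DNAJC5B, DNAJC5G, HSPA12B, HSPA6, HSPA7, HSPB2, HSPB3, HSPB6, HSPB7 and HSPB9. DNAJB3 was listed at 0 in every library, and the highest value among the 14 was 1.59 for HSPB6 in the second T-47D BPA library. HSPA6, which is induced by strong heat stress, stayed between 0.0863 and 0.79 in all 16 libraries. In DMSO it had 0.124 and 0.0863 in ECC-1 and 0.419 and 0.79 in T-47D. With no filter on low values, HSPA6, HSPA7, DNAJB13 and HSPB2 of these 14 also differed between the lines in DMSO. HSPA1A and HSPA1B are nearly identical, as are HSPA6 and HSPA7, and HSP90AB2P, HSP90AB4P and HSP90B3P are pseudogene copies of HSP90 genes. Their values are uncertain because shared reads may have been split between copies, and DNAJC25-GNG10 is a readthrough symbol that shares reads with its 2 genes.

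A few genes held much of this RNA. The 80 genes together took 1.25 to 1.58% of all RPKM in ECC-1 and 1.69 to 2.24% in T-47D. HSPA8, the constitutive cytosolic HSP70, and the cytosolic HSP90 genes HSP90AB1 and HSP90AA1 together made up 39.1 to 55.1% of that sum in the 16 libraries. In DMSO, HSPA8 ranked 29th among all genes in ECC-1 and 6th in T-47D. HSP90B1, the HSP90 of the endoplasmic reticulum, had 427 and 424 scaled RPKM in the ECC-1 DMSO libraries and 427 and 423 in those of T-47D. At the other end, DNAJC12, a J protein that partners aromatic amino acid hydroxylases, had 0.658 and 0.809 in ECC-1 and 0.72 and 0.768 in T-47D, values that overlap.

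Heat shock elements were looked for in the 250 bases before the annotated starts, as background to the genes the values turn on. The motif was 3 alternating units without mismatch, GAANNTTCNNGAA or TTCNNGAANNTTC, on both strands. The sequences are RefSeq's on GRCh38.p14, another build than the hg19 of the deposited values, and 67 of the 80 genes had an entry. The motif stood before a start of 6 of these 67 genes (HSPA8, HSP90AA1, HSP90AB1, HSPD1, DNAJB6 and the untested HSPA6), and before 155 of all 35116 promoters in the table, or 0.441%. The first is a count of genes and the second of promoters, so the 2 are not in the same unit. The windows of 29 bases are shown for 4 genes that recur below, read 5′ to 3′ on the strand of the gene, with the element in capitals.
HSP90AA1: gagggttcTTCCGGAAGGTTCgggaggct
HSP90AB1: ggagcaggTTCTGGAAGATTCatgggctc
HSP90AB1: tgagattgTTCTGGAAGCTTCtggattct
HSPA8: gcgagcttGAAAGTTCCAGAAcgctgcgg
HSPA8: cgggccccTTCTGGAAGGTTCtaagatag
HSPD1: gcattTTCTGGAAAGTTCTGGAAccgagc
HSPA8 and HSP90AB1 each held 2 separate elements, and HSPD1 held 2 that overlap. The HSPA8 windows lie at chr11:123062346-123062374 and chr11:123062171-123062199 and that of HSPD1 at chr2:197500062-197500090, all on the minus strand. HSP90AA1 has its window at chr14:102087112-102087140 on the minus strand, and HSP90AB1 at chr6:44247770-44247798 and chr6:44247823-44247851 on the plus strand. A match is a description of the sequence and no record of binding.

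Without hormone the lines differed in 45 of the 66 tested genes, or 68.2%, against 76.7% of all genes tested. T-47D was higher in 19 (39.6% of all genes were higher) and lower in 26 (37.1% were lower). HSPB1, HSPB8, the inducible HSPA1A and HSPH1, and DNAJA4 were higher in T-47D, while the mitochondrial chaperonin genes HSPD1 and HSPE1, the histone chaperone gene DNAJC9 and the testis-rich HSPA2 were lower. With a share below that of all genes, the counts are no result about the family as a whole. The split depends somewhat on scaling: without scaling it was 19 higher and 30 lower, and with quantile normalization 23 and 27.

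**Figure D1:**
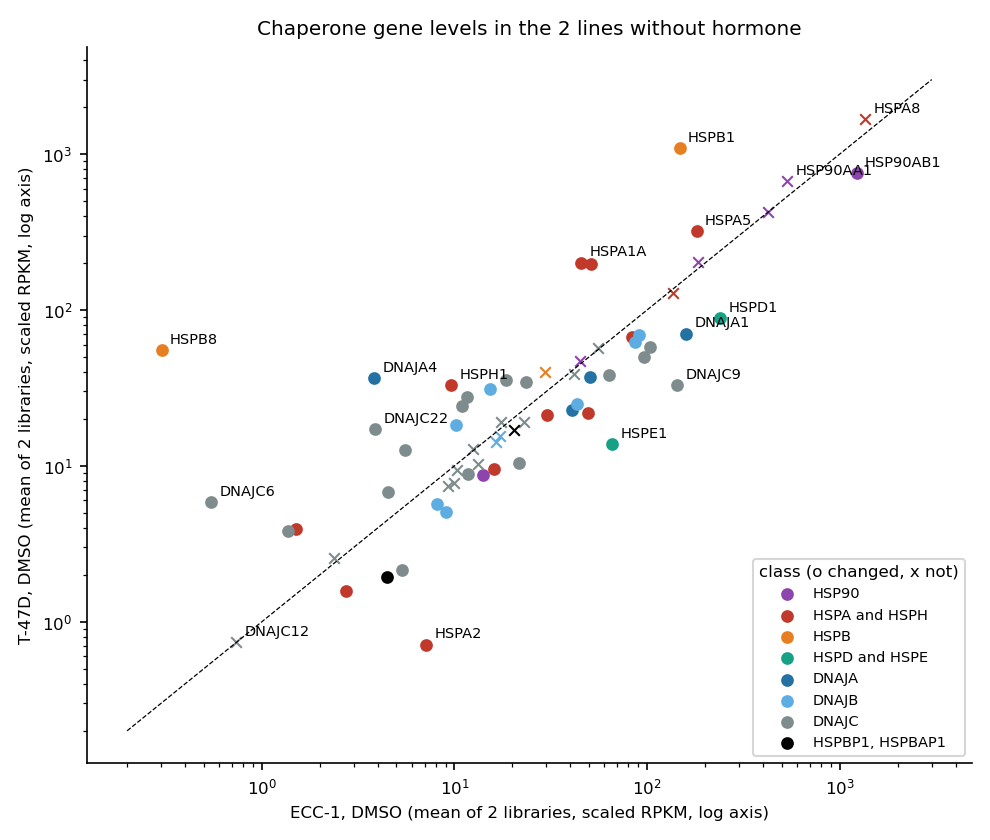
Each point is 1 of the 66 tested genes, with its mean scaled RPKM over 2 DMSO libraries in ECC-1 (x axis) and T-47D (y axis), both log axes, coloured by class. Circles passed the test and crosses did not, and the dashed line marks equal levels; HSPB8 lies farthest above it and HSPA2 farthest below.

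Among the small heat shock proteins, HSPB8 showed the largest difference between lines of any member. HSPB8 works with BAG3 to deliver misfolded protein to autophagy, and RefSeq lists E2IG1 among its other names. It had 0.252 and 0.351 scaled RPKM in the ECC-1 DMSO libraries and 54.5 and 55.6 in those of T-47D. The T-47D values lie far above both ECC-1 values, which rest on an estimated 11.6 and 23.2 reads. The ratio of means was 182, and the log2 difference was 6.12 (SE 0.17, adjusted p = 4.712e-14). HSPB1, which binds unfolded protein and actin, had 134 and 161 in ECC-1 and 1154 and 1027 in T-47D, a log2 difference of 2.89 (SE 0.19, adjusted p = 2.359e-09). In T-47D it was the 16th most abundant gene in DMSO. HSPB11, a ciliary transport protein that carries the family name, had 30.9 and 28.1 against 39.1 and 41.4, all higher in T-47D, and did not pass (adjusted p = 0.05471, but it passed in 2 of 14 other settings). The HSPB genes were therefore 2 higher and 0 lower of 3 tested, under each of the 3 scalings. These counts depend on the filter on low values, which HSPB8 passed through its T-47D libraries alone. HSPB2, which the filter left out, ran the other way, with 0.44 and 0.574 in ECC-1 and 0.046 and 0 in T-47D. With no filter it was called between lines, the only HSPB gene added. Of all genes, 39.6% were higher and 37.1% lower with the scaling used here.

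Of the 13 tested HSPA and HSPH genes, 5 were higher in T-47D and 6 lower (6 and 5 with quantile normalization). That is 84.6% of the class, against 76.7% of all genes. The 5 higher count HSPA1A and HSPA1B apart, although their values cannot be separated. HSPA1A, the main heat-inducible HSP70, had 50.4 and 40.7 in ECC-1 and 151 and 250 in T-47D (log2 2.09, SE 0.28, adjusted p = 6.993e-06). The groups do not overlap, but the T-47D libraries lie far apart. HSPA1B (1.89 higher) cannot be separated from it. HSPH1, the cytosolic HSP110 that releases nucleotide from HSP70, had 10.9 and 8.34 against 30.1 and 35.8 (1.73, SE 0.17, adjusted p = 2.318e-07). HSPA5, the HSP70 of the endoplasmic reticulum (BiP), was 1.78 times as high in T-47D (180 against 321 on average, adjusted p = 1.625e-05), and HSPA1L was also higher (1.11). HSPA2, a germ-cell HSP70 found in some epithelia, went the other way, with 6.9 and 7.36 in ECC-1 against 1.01 and 0.418 in T-47D (-2.70, adjusted p = 3.203e-09). HSPA13, an HSP70 of the microsomes, was lower too (-1.15). HSPA8 with 1510 and 1203 against 1369 and 1990 overlapped between lines (adjusted p = 0.3493; 1.1 higher with quantile normalization, adjusted p = 0.002242), and mitochondrial HSPA9 also overlapped (0.5069).

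Both genes of the mitochondrial chaperonin were lower in T-47D. HSPD1 had 248 and 228 scaled RPKM in ECC-1 and 89.1 and 88.4 in T-47D (-1.42, SE 0.12, adjusted p = 3.831e-08). HSPE1 had 68.7 and 63.4 against 14.6 and 12.8 (-2.23, SE 0.16, adjusted p = 5.851e-09). In both genes each T-47D library lies far below each ECC-1 library. In the list of 11 mitochondrial chaperones and cofactors, which adds TRAP1, HSCB, GRPEL1, GRPEL2 and J proteins, 0 were higher and 7 lower (0 and 9 under both other scalings). The 7 are 63.6% of the list, a smaller share than the 76.7% of all genes that differed. Its median was -0.55, against 0.04 for all genes tested. Chaperones of the endoplasmic reticulum split evenly, with 4 higher and 4 lower of 11 (72.7%).

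HSP90 genes differed less. HSP90AB1 had 1275 and 1174 in ECC-1 and 739 and 770 in T-47D, a difference of -0.70 (adjusted p = 0.000259). With quantile normalization this difference turned to 0.15 and did not pass (adjusted p = 0.3708), so the direction of HSP90AB1 between lines depends on scaling. HSP90AA1 had 578 and 484 against 642 and 700, all higher in T-47D, without passing (adjusted p = 0.05218). It passed in 5 of 14 other settings, among them quantile normalization (1.18, adjusted p = 1.84e-05) and the replicate number as a block (adjusted p = 0.02005). HSP90B1, level between lines here, was 0.76 higher in T-47D with quantile normalization (adjusted p = 3.53e-05). The class gave 0 higher and 2 lower of 6, or 33.3% against 76.7% of all genes. The 2 lower were HSP90AB1 and the pseudogene HSP90AB4P (14.3 and 13.9 in ECC-1, 8.53 and 9.06 in T-47D). They may share reads, so they may not be 2 separate differences. With quantile normalization it gave 3 higher and 1 lower, so its direction depends on scaling.

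Among J proteins, the classes moved both ways: DNAJA 1 higher and 3 lower of 4, DNAJB 2 and 5 of 9, and DNAJC 9 and 7 of 27. These are 100%, 77.8% and 59.3% of the classes, against 76.7% of all genes. DNAJA4, an HSP70 partner of the farnesylated type, had 3.59 and 4.08 in ECC-1 and 35.1 and 37.7 in T-47D (3.09, SE 0.12, adjusted p = 4.596e-12). Its relative DNAJA1 ran opposite, with 176 and 143 against 69.9 and 70.9 (-1.16, adjusted p = 1.692e-06). DNAJC6, auxilin, which uncoats clathrin vesicles, had 0.509 and 0.588 against 5.18 and 6.54 (2.59, adjusted p = 1.824e-09). DNAJC6, HSPB8 and HSPA2 were the tested members whose DMSO mean lay under 1 scaled RPKM in one line and at 5 or more in the other. DNAJC9 had 148 and 138 against 34.8 and 30.8 (-2.11, adjusted p = 3.825e-09), with every T-47D library below every ECC-1 library. Other higher members were DNAJC22 (2.01), DNAJC4 (1.23), DNAJC28 (1.2), DNAJC30 (1.12), DNAJC13 (1.1) and DNAJB2 (0.99). Other lower ones were DNAJC18 (-1.14), DNAJC2 (-1.01), DNAJC8 (-0.95), DNAJC25-GNG10 (-0.83), DNAJA2 (-0.81), DNAJB4 (-0.78), DNAJB6 (-0.78) and, outside the J proteins, HSPBAP1 (-1.03). The call of DNAJB4 ended in 3 of 14 other settings: with no filter on low values (adjusted p = 0.06896), and without the first DMSO library of ECC-1 (0.1206) or of T-47D (0.0922). DNAJB9, a J protein of the endoplasmic reticulum that binds HSPA5, was 0.81 higher (adjusted p = 0.0003428), and DNAJB1, the main cytosolic partner of HSPA1A, was 0.47 lower (adjusted p = 0.006737). The call of DNAJB1 also ended in 3 of 14, with quantile normalization (0.05492) and without the first DMSO library of ECC-1 (0.06264) or of T-47D (0.08952). DNAJC3, which inhibits eIF2α kinases, and DNAJC15, a mitochondrial J protein, did not pass (adjusted p = 0.4387 and 0.06136), although DNAJC15 passed in 4 of 14 other settings.

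HSPB8 rose with estradiol in T-47D, by the largest log2 difference of any member in any of the 6 comparisons with DMSO. HSPB8 had 54.5 and 55.6 scaled RPKM in DMSO, 184 and 176 with estradiol, 58.7 and 83.6 with BPA, and 128 and 164 with genistein. Both estradiol and both genistein libraries lie above every DMSO and BPA library. The increase with estradiol was 1.70 on the log2 scale (95% interval 1.35 to 2.05, adjusted p = 2.281e-05), or 3.25-fold. With genistein it was 1.39 (1.04 to 1.74, adjusted p = 0.0003443), or 2.62-fold. With BPA both libraries lay above both DMSO libraries, but the difference of 0.35 did not pass (-0.007 to 0.70, adjusted p = 1). Both called increases held under 15 of 15 other settings. The values rest on an estimated 2058 to 9484 reads per T-47D library. The 250 bases before the HSPB8 start (chr12:119178681-119178930, plus strand, GRCh38.p14) are shown because this gene carries the main response.
HSPB8: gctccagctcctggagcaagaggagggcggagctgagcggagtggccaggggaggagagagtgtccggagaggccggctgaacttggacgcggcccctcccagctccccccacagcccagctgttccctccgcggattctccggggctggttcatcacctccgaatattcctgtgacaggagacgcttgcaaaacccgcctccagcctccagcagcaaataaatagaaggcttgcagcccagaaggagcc
This window held neither the heat shock element nor the palindromic estrogen response element GGTCANNNTGACC, searched on both strands. The latter stood in 0 of the 67 members with an entry and in 14 of 35116 promoters (0.0399%). No match says only that these letters are not in this window.

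**Figure D2:**
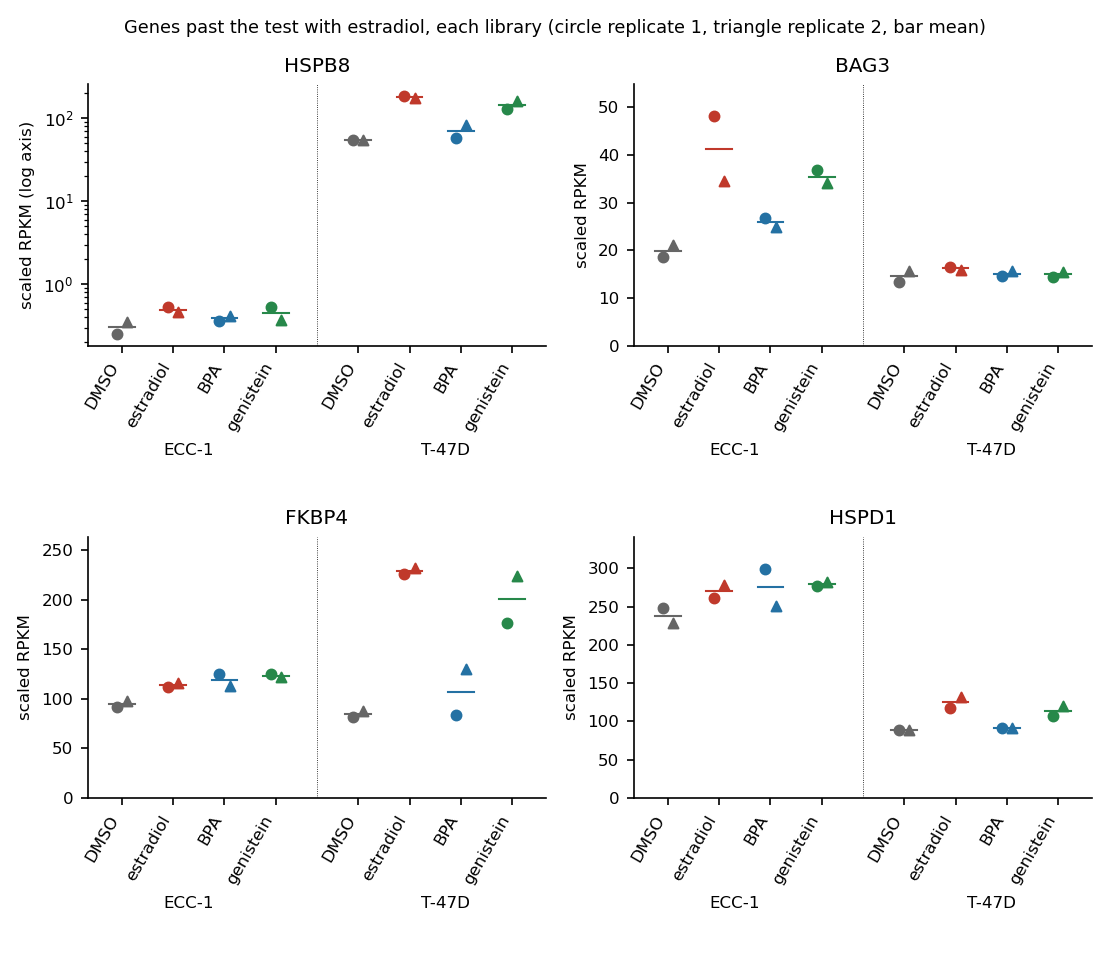
Scaled RPKM of HSPB8 (log axis), BAG3, FKBP4 and HSPD1 in each of the 16 libraries, by line and treatment; circles are replicate 1, triangles replicate 2 and bars the mean of 2. HSPB8 and FKBP4 stand highest with estradiol and genistein in T-47D, and BAG3 in ECC-1.

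In T-47D, estradiol changed 2 of the 66 members, both higher, which is 3.03% against 3.22% of all genes. The second was HSPD1, with 89.1 and 88.4 in DMSO, 117 and 132 with estradiol, 91.1 and 90.9 with BPA, and 107 and 120 with genistein. Both estradiol libraries lie above both DMSO libraries (0.49, SE 0.12, adjusted p = 0.04011). This call ended in 4 of 15 other settings: with array weights (adjusted p = 0.4123), in T-47D alone (0.09725), and without either T-47D DMSO library (0.1763 without replicate 1, 0.2751 without replicate 2). The median 95% interval over members reached 0.31 to either side before adjustment over all genes, and differences larger than that also missed the threshold. When 1 library was left out, the estradiol difference in T-47D ran from 0.40 to 0.57 for HSPD1 and from 1.662 to 1.735 for HSPB8. The 2 estradiol libraries differ from each other, and which of them deviates cannot be told from 2 values.

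Members with the next smallest p did not pass. The pseudogene HSP90AB4P had a difference of 0.41 (adjusted p = 0.1424), HSP90AB1 had 739 and 770 in DMSO against 921 and 1022 (0.36, adjusted p = 0.2098), and DNAJB5 had -0.30 (adjusted p = 0.2237). HSPE1 had 14.6 and 12.8 against 19.7 and 16.2 (0.37, adjusted p = 0.294). In HSP90AB1 and HSPE1 both estradiol libraries lie above both DMSO libraries. HSPB1 had 1154 and 1027 in DMSO and 1814 and 1091 with estradiol, so the groups overlap and the higher mean rests on the first estradiol library. All 6 HSP90 symbols had a positive difference (4 of 6 with quantile normalization) and 0 passed, with 7 members at an unadjusted p under 0.05 in the whole contrast. The 6 include the pseudogenes HSP90AB2P, HSP90AB4P and HSP90B3P, which may share reads with HSP90 genes.

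In T-47D, genistein changed 1 of 66 members, HSPB8, or 1.52% against 0.803% of all genes. HSPD1 came next with both libraries above DMSO (0.35, adjusted p = 0.4167), followed by HSP90AB2P, DNAJC6 and DNAJB1, each with adjusted p = 1. BPA changed 0 of 66 members and 0% of all genes, and 0 members had an unadjusted p under 0.05, against 116 of all 13827 genes. Genistein and BPA were given at the same dose, so they can be set against each other. That comparison changed 1 member, HSPB8 (1.52% against 0.405% of all genes), which was 1.05 higher with genistein (95% interval 0.69 to 1.40, adjusted p = 0.007329), or 2.06-fold. The call ended without the first BPA library (0.80, adjusted p = 0.1763) or the second genistein library (0.87, adjusted p = 0.1652), in T-47D alone (0.07894) and with no filter on low values (0.05839). HSPD1 was 0.32 higher with genistein than with BPA (0.06 to 0.58) without passing (adjusted p = 0.8186). Estradiol was given at another dose than both compounds, and its values stand beside theirs without a test.

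**Figure D3:**
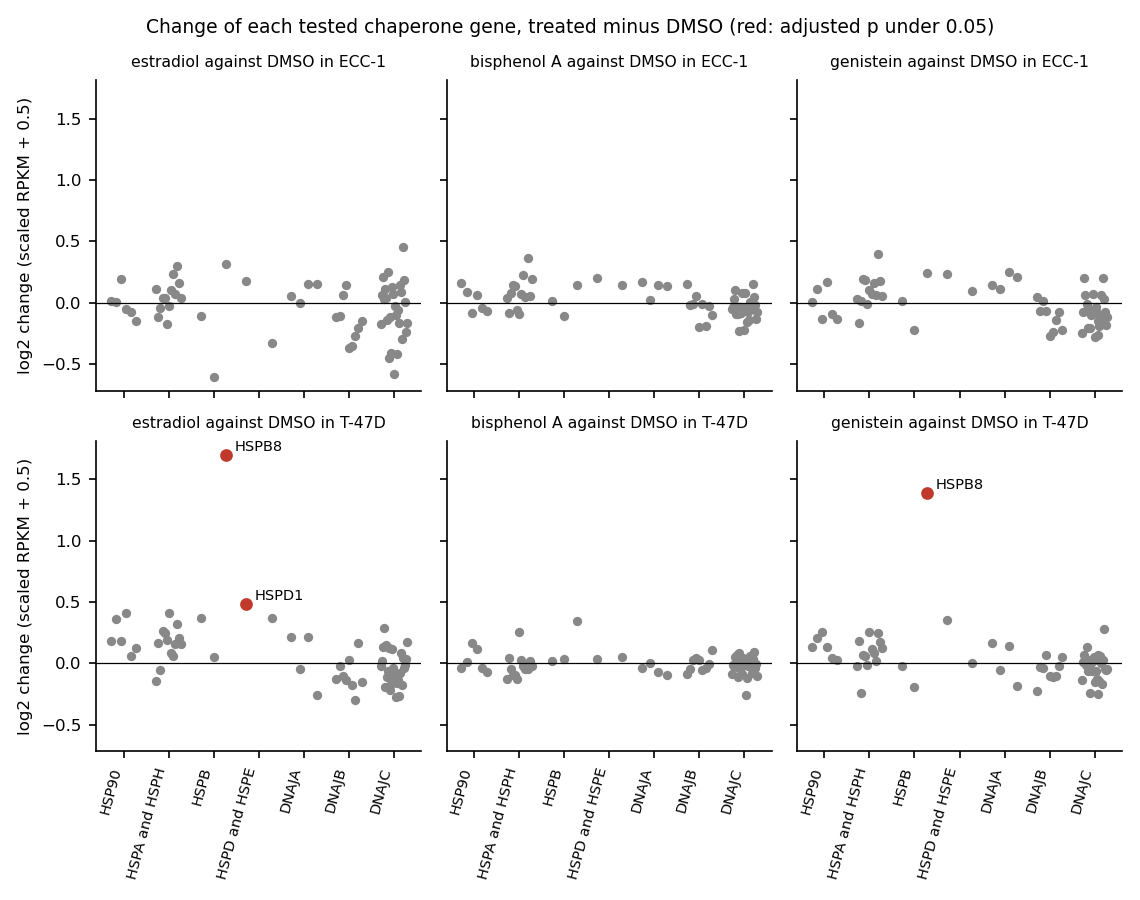
Log2 difference from DMSO for each tested HSP90, HSPA and HSPH, HSPB, HSPD and HSPE, DNAJA, DNAJB and DNAJC gene, in 6 panels for 3 treatments and 2 lines. Red points passed at an adjusted p under 0.05: HSPB8 with estradiol and genistein and HSPD1 with estradiol, all in T-47D.

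In ECC-1 no treatment changed any of the 66 members by limma. The background was 1.89% of all genes with estradiol, 0.195% with BPA, 0.969% with genistein and 0.0434% for genistein against BPA. At an unadjusted p under 0.05 there were 7 of 66 members with estradiol, 0 with BPA, 1 with genistein and 0 for genistein against BPA. Of all 13827 genes, 2125, 347, 1061 and 206 had such a p. The smallest p with estradiol belonged to DNAJC22, with 4.1 and 3.68 scaled RPKM in DMSO and 2.69 and 2.2 with estradiol. Both estradiol libraries lie below both DMSO libraries, and the difference of -0.58 did not pass (adjusted p = 0.07341, and 0.04563 with quantile normalization). HSPB11 followed, with 30.9 and 28.1 in DMSO and 14.4 and 25.7 with estradiol (-0.60, adjusted p = 0.1645), a mean set largely by the first estradiol library. DNAJC5, the synaptic vesicle J protein, had 17 and 20.1 against 32.4 and 20.1 (0.45, adjusted p = 0.276), again led by that library. DNAJB5 (-0.27) and DNAJC25-GNG10 (-0.41) did not pass either.

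In the ECC-1 estradiol group, members with shorter transcripts tended to be lower in the first library than in the second. Lengths come from GENCODE, an annotation other than the RefSeq one of the values, and only members were examined. Over 63 members with a known length, the rank correlation between length and the log2 difference of the first and second library was 0.43 in this group, and -0.35 to 0.23 in the other 7, all points sharing those libraries. The 3 members under 1000 bases had a median difference of -0.54 there, against -0.04 for the others. In the T-47D estradiol pair the gap ran the other way, with 0.40 for those 3 and -0.15 for the others, at a rank correlation of -0.17. Of the 3, HSPE1 (950 bases) had 43.4 in the first ECC-1 estradiol library and 63.5 in the second. HSPB11 had 14.4 and 25.7, and HSPB1 133 and 141. DNAJC19, a J protein of the mitochondrial import motor with a longer transcript (1454 bases), had 23.9 and 41.4 in these libraries. Without the second estradiol library 6 members passed, and 2148 of all genes, and without the first 0 members passed. The part of transcript length in these values was not tested.

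With BPA in ECC-1, HSPD1 (0.20), DNAJB5 (-0.19), DNAJC22 (-0.22), HSPA4L (0.23) and DNAJA3 (0.14) had the smallest p, each with adjusted p = 1. With genistein they were DNAJA3 (0.25, adjusted p = 0.5665), HSPD1 (0.23), DNAJC1 (-0.25), DNAJC22 (-0.28) and DNAJB2 (-0.27). DNAJA3, the mitochondrial J protein that serves HSPA9, had 49 and 52 in DMSO and 61 and 59.3 with genistein, all above the control. HSPB8 stayed low in ECC-1 throughout, at 0.527 and 0.464 with estradiol, 0.361 and 0.41 with BPA and 0.533 and 0.373 with genistein. Each treated library lay above both DMSO libraries, on an estimated 16.9 to 27.4 reads, and no difference passed.

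Whether a treatment acted differently in the 2 lines was tested as an interaction. HSPB8 was the member that passed, for estradiol (1 of 66, or 1.52%, against 1.73% of all genes) and for genistein (1.52% against 0.586%). For BPA 0 members passed, against 0.0434% of all genes, and 0 had an unadjusted p under 0.05, against 195 of all 13827 genes. The estradiol response of HSPB8 was 1.39 log2 units larger in T-47D (95% interval 0.89 to 1.88, adjusted p = 0.004306), and the genistein response 1.14 larger (0.65 to 1.64, adjusted p = 0.03593). The ECC-1 values of HSPB8 lie near or below the pseudocount of 0.5, which shrinks the ECC-1 response on this scale. With a pseudocount of 0.1 the differences were 1.13 (adjusted p = 0.06522) and 0.94 (adjusted p = 0.333), so both calls ended. The estradiol call also ended with array weights (1.39, adjusted p = 0.1463), and it held in the other 16 of 18 settings. The genistein call ended in 9 of 18: also with no filter on low values (adjusted p = 0.1366) and, with values of 0.97 to 1.27, when 1 library was left out: either DMSO library of either line, either ECC-1 genistein library, or the second T-47D genistein library. When 1 library was left out, the estradiol difference of HSPB8 between the lines ran from 1.30 to 1.48.

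Genes that work with these chaperones were followed as a list of 51 partners, 49 of them tested. The list was chosen with earlier results of these data known, so its shares are a description and no test. With estradiol in T-47D, 3 rose and 0 fell (6.12% against 3.22% of all genes), with a median of 0.16 against -0.01 for all genes. FKBP4, an immunophilin that joins HSP90 on steroid receptors, had 81.8 and 88 in DMSO, 226 and 232 with estradiol, 83.7 and 130 with BPA and 177 and 224 with genistein. Both estradiol and both genistein libraries lie above every DMSO and BPA library. It rose by 1.43 with estradiol (SE 0.17, adjusted p = 0.0001157) and by 1.22 with genistein (adjusted p = 0.001218), both under 15 of 15 other settings. Genistein exceeded BPA by 0.93 (adjusted p = 0.02198), a call that ended in 4 of 15 settings. TRAP1, the mitochondrial HSP90, had 43 and 41.8 against 62.6 and 56.6 with estradiol (0.48, adjusted p = 0.01812), and BAG1, an HSP70 nucleotide exchange factor, 17.7 and 16 against 29.1 and 21.2 (0.55, adjusted p = 0.03362). Their calls ended in 5 and 7 of 15 settings. The estradiol response of FKBP4 was 1.16 larger in T-47D than in ECC-1 (adjusted p = 0.01885), a call that ended in 9 of 18 settings.

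BAG3, the exchange factor that binds HSPB8, followed the other line. In ECC-1 it had 18.5 and 21.2 in DMSO, 48.1 and 34.5 with estradiol, 26.8 and 24.9 with BPA and 36.8 and 34.1 with genistein. All treated libraries lie above both DMSO libraries. It rose by 1.02 with estradiol (SE 0.14, adjusted p = 0.0007855, in 15 of 15 settings) and by 0.82 with genistein (adjusted p = 0.008069, ended in 3 of 15), while 0.37 with BPA did not pass (adjusted p = 1). In T-47D it had 13.4 and 15.6 in DMSO and 16.6 and 15.9 with estradiol (0.16, adjusted p = 0.6457). The estradiol response was 0.86 smaller in T-47D, and this difference of -0.86 (adjusted p = 0.04596) ended in 13 of 18 settings. FKBP5, another receptor immunophilin, differed between lines in DMSO (1.32 higher in T-47D) but not detectably with estradiol in T-47D (0.01, adjusted p = 0.9765). Between lines, 9 partners were higher in T-47D and 31 lower, or 81.6% against 76.7% of all genes, of which 39.6% were higher and 37.1% lower. They ran from HSF4, a heat shock factor of the lens, at 3.53 to BAG2, which inhibits the ubiquitin ligase STUB1, at -3.81. The cytosolic chaperonin genes CCT4 (-1.43) and CCT7 (-1.44) and the exchange factor gene BAG5 (0.74) were among them, and HSF1 itself was 0.55 higher.

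The list of 21 heat-inducible genes gathers targets of HSF1, and 20 of them were tested. It was chosen with earlier results of these data known, so its shares are a description and no test of the list. With estradiol in T-47D, 18 of 20 had a positive difference (16 with quantile normalization), with a median of 0.20 against -0.01 for all genes, and 2 passed, FKBP4 and HSPD1 (10% against 3.22% of all genes). With genistein in T-47D it was 17 of 20, a median of 0.10 and 1 passed, FKBP4 (5% against 0.803%). With BPA in T-47D it was 9 of 20 (11 with quantile normalization), a median of -0.01 and 0 passed, as over all genes. In ECC-1, 16 of 20 had a positive difference with estradiol, 19 with BPA and 19 with genistein (17, 19 and 19 with quantile normalization). The ECC-1 medians were 0.05, 0.16 and 0.13. There BAG3 was the only gene of the list to pass, with estradiol (5% against 1.89%) and with genistein (5% against 0.969%), and with BPA 0 passed (against 0.195%). All 3 comparisons of a line share its DMSO libraries. Between lines in DMSO, 5 were higher in T-47D and 10 lower, or 75% against 76.7% of all genes (8 and 7 with quantile normalization).

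Some of these genes differed in 1 direction between the first and second libraries of a line. In ECC-1, 8 of 20 heat-inducible genes were higher in replicate 1 than in replicate 2 in all 4 groups (40% against 8.6% of all genes), namely HSPA1A, HSPA1B, HSPA8, HSPH1, HSP90AA1, DNAJB1, CHORDC1 and AHSA1. In T-47D, 8 of 20 were lower in replicate 1 in all 4 groups (40% against 11.4%), namely HSPA1A, HSPA1B, HSPA8, HSPH1, HSP90AA1, HSP90AB1, DNAJB1 and FKBP4. Both counts hold HSPA1A and HSPA1B, which cannot be separated. With estradiol in T-47D their 2 libraries were nearly level, at 234.3 and 234.6 for HSPA1A and 223.1 and 227.9 for HSPA1B. HSPA8 in T-47D had 1369 and 1990 in DMSO, 1589 and 2673 with estradiol, 1338 and 1921 with BPA and 1579 and 2437 with genistein. In each group the second library is the higher, and over both replicates the 4 treatments overlap. Among the first libraries, and again among the second, estradiol and genistein stand above DMSO and BPA. The difference from DMSO was 0.32 with estradiol and 0.25 with genistein, and neither passed (adjusted p = 0.6327 and 1, or 0.2481 and 0.9011 with the replicate number as a block). These genes were counted after the values were seen, the labels do not say what the replicate number marks, and what moved the 2 sets was not tested.

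**Figure D4:**
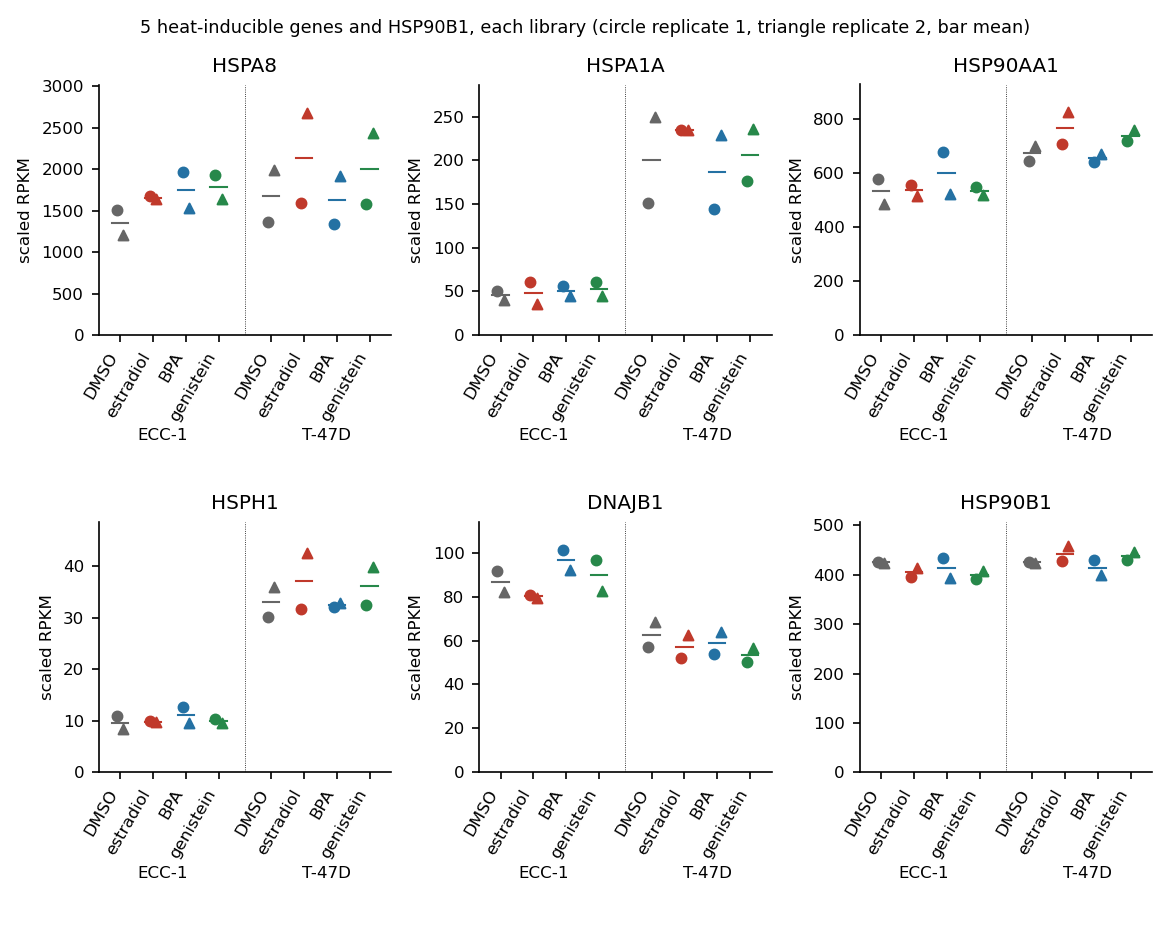
Scaled RPKM of 5 heat-inducible genes and of HSP90B1 in each of the 16 libraries; circles are replicate 1, triangles replicate 2 and bars the mean of 2. For HSPA8, HSPH1, HSP90AA1 and DNAJB1 the circle lies above the triangle in ECC-1 and below it in T-47D in every group, which HSP90B1 does not show.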

How the data were processed

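RNA of 16 libraries was analysed, and the members and gene lists were chosen with earlier results of these data known. The authors deposited 1 table of RPKM per library, reads per kilobase and per M reads, for 32062 RefSeq transcripts. Reads were aligned with Bowtie to hg19, per the submitters' processing notes. The counting method and the treatment of multiply mapped reads are not given in the sources used here, and strand is not kept. The spacing of low values within a library gave its approximate depth (17.4 to 29.4 M reads). At these depths 62.1 to 64.4% of low values lay within 0.1 read of a whole number, against 14.8 to 16.8% at the median of the depths tried.

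The transcript with the highest mean stood for each symbol. Libraries were divided by a scale factor (0.938 to 1.054), taken as the median, over 7547 genes of 5 RPKM or more, of the ratio to each gene's geometric mean. The 13827 genes that reached 1 RPKM in 2 or more libraries were fitted on log2(scaled RPKM + 0.5) with limma 3.58.1 in R 4.3.3 (8 group means, eBayes with trend, Benjamini-Hochberg within each of 12 contrasts, threshold 0.05), and the fit was tested on simulated data. For each contrast the text names members past the threshold, at most 12 each way (14 each way between lines), and otherwise those with the smallest p up to 5 in all, beside the chaperones followed in every contrast and genes from a list of 51 partners, of which BAG6 was not matched.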

Additional observations from a re-analysis of the deposited data

Results flagged for a closer look

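The response of HSPB8 passed a test of the difference between the lines, but not under every setting. Its estradiol response was 1.39 log2 units larger in T-47D than in ECC-1, and its genistein response 1.14 larger. With a pseudocount of 0.1 neither passed (1.13, adjusted p = 0.06522, and 0.94, adjusted p = 0.333). The estradiol call ended in 2 of 18 settings, the other being array weights (adjusted p = 0.1463), and the genistein call in 9 of 18. In T-47D all 4 libraries treated with estradiol or genistein lay above both DMSO libraries, and in ECC-1 the gene stood under 1 scaled RPKM in every library.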

How the results depend on the processing

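Counts of changed members were recomputed under 188 combinations of comparison and setting, of which 164 kept them within 1.5 times and 24 did not. The 164 include comparisons with 0 changed members, where a count that stayed at 0 was scored as kept. They also include the line comparison, which was never among the 24. The share is therefore no measure of how stable the calls with a treatment are. With array weights, which lower the weight of the estradiol groups, the count was 1 for estradiol in T-47D, 0 for its interaction and 1 for genistein in ECC-1. A pseudocount of 0.1 gave 0 for the estradiol and genistein interactions. No filter on low values gave 0 for genistein against BPA in T-47D and for the genistein interaction. Quantile normalization gave 1 for estradiol in ECC-1. The libraries of T-47D alone gave 1 for estradiol and 0 for genistein against BPA, while ECC-1 and T-47D alone could not give interactions or line differences. Leaving out 1 library at a time, the counts ran from 0 to 6 for estradiol in ECC-1, 1 to 8 for estradiol in T-47D, 1 to 5 and 0 to 1 for the estradiol and genistein interactions, 0 to 1 for genistein against BPA in T-47D and 41 to 43 between lines. Where this leaves a group with 1 library, that library is assumed to vary like the other groups. What moved these counts was not tested. Between lines, quantile normalization turned HSP90AB1 (0.15), HSPA9 (0.13), HSP90B1 (0.76) and DNAJC12 (-0.039). DNAJC12 also turned with no scaling (-0.045), with rows of a symbol summed (-0.015) and when 1 library was left out (-0.074 to 0.10). HSP90B1 turned without both first estradiol libraries (0.0065) and, with HSPA9, when 1 library was left out (-0.0082 to 0.0043 and -0.21 to 0.030). Leaving out 1 library also turned HSPA8 in T-47D with estradiol (-0.055 to 0.69), BPA (-0.31 to 0.23) and genistein (-0.065 to 0.56), HSPA2 with BPA in T-47D (-0.097 to 0.62) and its interaction (-0.0059 to 0.71), and HSP90AA1 for genistein against BPA in ECC-1 (-0.35 to 0.028). Of these, HSP90AB1 had passed. Of the 45 members called between lines, 42 were shared with the 50 called under quantile normalization, DNAJB1, HSP90AB1 and HSPA4 being lost. Same-numbered libraries of a line did not deviate together in every pair of groups. The correlation of the difference between the 2 libraries ran from -0.22 to 0.41 over all genes and from -0.09 to 0.67 over the members. Over the members it was negative only for DMSO with estradiol in ECC-1 (-0.09) and estradiol with BPA in T-47D (-0.0086), and positive in all other pairs. The labels state no design, so the replicate number was not a block in the main fit. With it as a replicate block, estradiol in T-47D changed 2 members, genistein 1 and the lines 47, the 45 with HSP90AA1 and DNAJC17 added, and the calls in the other comparisons were the same genes. Depth limits HSPB8 in ECC-1, at 11.6 to 27.4 estimated reads.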
